A study of Homo sapiens with 16 samples.

Results

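The 9 genes described here are drivers of neuroblastoma, a tumour of the sympathetic nervous system, or genes that act with or against them. They comprise the receptor gene ALK, the growth factor genes ALKAL2, PTN and MDK, the RNA-binding protein gene LIN28B, and the transcription factor genes MYCN, MYC, MAX and MXI1. They were taken by name for their known roles, with earlier results of these data known, and make up 9 of the 69222 genes in the count table. Of these, 8 passed the filter on low counts and were among the 18081 genes tested; ALKAL2 did not pass. The study grew SH-SY5Y cells, a human neuroblastoma line known to lack MYCN amplification and to carry an activating ALK mutation, on conductive films and asked how the film and electrical stimulation change the transcriptome during differentiation.

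Polyadenylated RNA was sequenced from 16 libraries in 8 groups of 2. The film groups were 6: P(rGO), in which reduced graphene oxide is embedded in a polymer, the conducting polymer blend PEDOT:PSS, and the transparent conductor ITO, each with and without electrical stimulation. The other groups were cells differentiated on culture plates and untreated cells on culture plates. For differentiation the serum content was stepped down on days 2, 3 and 5, to 5%, 2.5% and 1%, with 10 µM retinoic acid between day 3 and day 6 and then 50 ng/mL BDNF, a neurotrophic factor, for 4 days. Stimulated films received a square wave of 0.1 V peak to peak at 1 Hz during the last 4 days, 8 h each day. A poly-L-lysine and laminin coat is named for the films and none for the plates, so the film material and the coat cannot be told apart in any comparison of films with plates. The unit of replication is the library of a group, and the labels do not say whether the libraries of a group stem from separate cultures, so each p-value reflects variation between libraries that may be purely technical.

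ALK is a receptor tyrosine kinase of the developing sympathetic lineage, and ALKAL2 is a ligand that activates it. PTN (pleiotrophin) and MDK (midkine) are related heparin-binding growth factors that signal through PTPRZ1, syndecans and other surface proteins, and ALK has been proposed as another receptor for them. ALK signalling raises MYCN transcription in neuroblastoma cells. LIN28B blocks the maturation of let-7 microRNAs, which repress MYCN among other targets. MYC and MYCN act as dimers with MAX on DNA sites called E-boxes, and MXI1 competes for MAX and represses the same sites.

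Libraries held between 15600410 and 20851000 reads assigned to genes. Levels are CPM, reads per 1000000 assigned reads after TMM scaling of the library sizes. A gene was called when its p from edgeR's quasi-likelihood test, adjusted over the 18081 genes by Benjamini and Hochberg's method, did not exceed 0.05. Adjusted p-values are from the fit over all 16 libraries unless a left-out library or another fit is named beside them. Of 8 adrenergic neuroblastoma markers, 7 were detected in each library and CHGA is listed at 0; they summed to between 2230 and 2947 CPM on films, 3340 and 3390 CPM on differentiated plates, and 4616 and 4848 CPM in untreated cells. The differentiated plate libraries differed from each other in MYC and PTN and in other genes, RET among them (2306 ± 1377 CPM, SD, n = 2). Results for members that rest on either of these libraries are given with and without it. Genes of the lists, markers and neighbours were not followed with a library left out. How the counting treated strand is not stated in the labels. Antisense genes that share exon bases with a member may therefore affect its count, for example through reads set aside as ambiguous. MYCNOS (98 bases, 26 counts in all libraries together) and LIN28B-AS1 (67 bases, 367 counts) are among them.

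The sequences shown first are the promoters of the 3 members that were called on most single films, followed by the let-7 microRNA that LIN28B acts on. Each promoter runs from 250 bases before to 50 bases after the RefSeq transcription start on GRCh38.p14, and capitals mark matches to the E2F-type motifs TTTGGCGC and TTTCGCGC or to the E-box CACGTG, searched on both strands.
MYCN, chr2:15940300-15940599, plus strand: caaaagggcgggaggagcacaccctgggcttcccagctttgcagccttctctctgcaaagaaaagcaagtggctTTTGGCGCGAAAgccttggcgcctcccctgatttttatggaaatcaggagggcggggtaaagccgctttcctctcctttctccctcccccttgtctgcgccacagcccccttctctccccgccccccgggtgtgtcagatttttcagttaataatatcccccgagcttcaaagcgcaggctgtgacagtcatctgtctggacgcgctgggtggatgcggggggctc
ALK, chr2:29921537-29921836, minus strand: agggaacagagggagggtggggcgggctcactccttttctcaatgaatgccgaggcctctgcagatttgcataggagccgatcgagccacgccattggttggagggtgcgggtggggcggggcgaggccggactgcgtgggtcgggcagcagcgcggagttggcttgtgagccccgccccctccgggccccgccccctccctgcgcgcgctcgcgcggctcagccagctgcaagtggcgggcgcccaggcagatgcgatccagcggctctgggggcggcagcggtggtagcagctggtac
PTN, chr7:137343684-137343983, minus strand: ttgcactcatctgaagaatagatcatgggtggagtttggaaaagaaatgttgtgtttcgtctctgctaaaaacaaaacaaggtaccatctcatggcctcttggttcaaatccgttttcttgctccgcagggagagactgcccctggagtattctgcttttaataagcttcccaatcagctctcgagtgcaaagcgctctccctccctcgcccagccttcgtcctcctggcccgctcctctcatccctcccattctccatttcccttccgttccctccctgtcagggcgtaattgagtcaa
MYCN was the only member of the 7 with a promoter entry to hold an E2F-type match. Its matches to TTTGGCGC and, on the opposite strand, to TTTCGCGC overlap and begin 176 and 172 bases before the start. Such a match occurred in 1.15% of 35116 promoters of the same length. The E-box was found in 0 of the 7 members' promoters and in 7.26% of all promoters. A match here is a description of letters, not of a bound site.

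The mature let-7a-5p is shown with its seed, bases 2 to 8, in capitals. In RefSeq 11 human mature microRNAs, not all of them named let-7, share that seed. LIN28B blocks let-7 maturation and, in its own 3′ untranslated region, carries matches to the seed.
let-7a-5p: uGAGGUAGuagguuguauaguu
LIN28B site 1, chr6:105078815-105078836, plus strand: cggttgcaaagtCTACCTCatg
LIN28B site 2, chr6:105081242-105081263, plus strand: tgatgatagtaaCTACCTCtga
LIN28B site 3, chr6:105081424-105081445, plus strand: tacagcaaaaggCTACCTCata
LIN28B site 4, chr6:105082863-105082884, plus strand: tgatggtgttgaCTACCTCttg
Capitals in the sites mark the match to the seed. The 3′ untranslated region of LIN28B, 4549 bases in GENCODE 29 on GRCh38, held 4 such matches, and those of ALK, ALKAL2, PTN, MDK, MYCN, MAX and MXI1 in their longest coding transcripts held 0. The libraries were made from polyadenylated RNA, so let-7 itself was not measured, and a count of 0 matches says only that these letters are not in those regions.

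**Figure D1:**
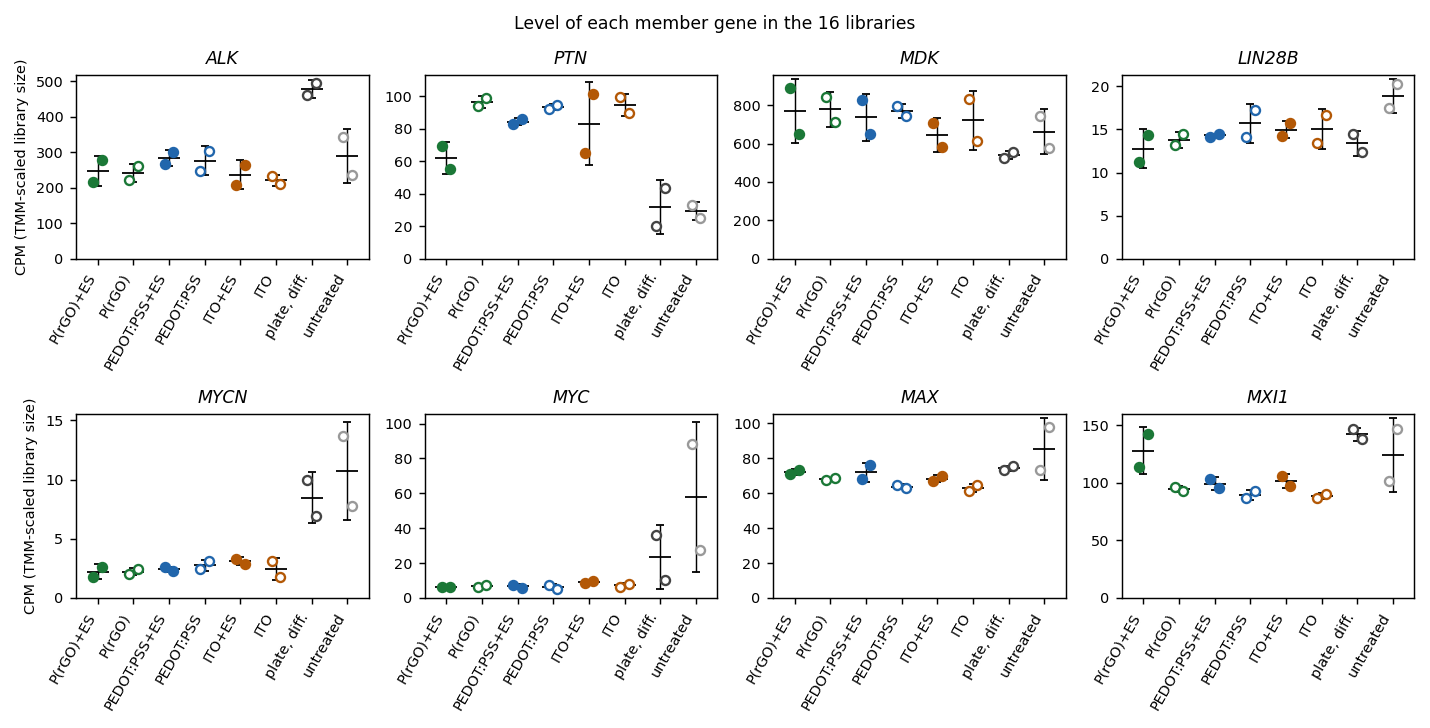
Level of each tested member in the 16 libraries, in CPM on a linear axis from 0. Points are libraries, filled for stimulated films and open for the other groups, and bars are the group mean and SD (n = 2). PTN sits higher on every film than on either kind of plate, MYCN and MYC sit lower, and ALK is highest on differentiated plates.

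Compared with differentiated plates, cells on films had less ALK, MYCN, MYC and MXI1 and more PTN in the fit over all 16 libraries. The differences in MYCN, MYC, MXI1 and PTN were smaller without plate replicate 1, with log2 fold changes of -1.46, -0.57, -0.47 and 0.97. Over the mean of the 6 film groups, 5 of 8 tested members were called, 1 higher and 4 lower, where 7.78% of all genes tested were called, 4.05% higher and 3.73% lower. MDK, LIN28B and MAX did not pass.

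ALK, on the minus strand of chromosome 2 (29192774 to 29921566), had 217 and 278 CPM on stimulated P(rGO), 223 and 260 CPM on P(rGO), 268 and 301 CPM on stimulated PEDOT:PSS, 246 and 304 CPM on PEDOT:PSS, 208 and 265 CPM on stimulated ITO, and 232 and 210 CPM on ITO. Differentiated plates had 461 and 496 CPM and untreated cells 344 and 236 CPM. The plate libraries lay above all 14 others, and the film libraries overlapped the untreated ones. ALK on films was 1.91-fold lower than on differentiated plates, a log2 fold change of -0.94 (SE 0.14, adjusted p = 0.00105). It was called without either plate library, with adjusted p of 0.0277 without plate replicate 1 and 0.017 without plate replicate 2.

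PTN, on the minus strand of chromosome 7 (137227341 to 137343865), had 69.0 and 55.0 CPM on stimulated P(rGO), 93.9 and 99.0 CPM on P(rGO), 82.7 and 86.0 CPM on stimulated PEDOT:PSS, 92.0 and 94.6 CPM on PEDOT:PSS, 65.1 and 101 CPM on stimulated ITO, and 99.2 and 89.8 CPM on ITO. Differentiated plates had 20.2 and 43.3 CPM and untreated cells 33.1 and 25.3 CPM. Every film library was above every plate library, treated or not. PTN was 2.66-fold higher on films than on differentiated plates (log2 fold change 1.41, SE 0.24, adjusted p = 0.00289). Without plate replicate 1 the log2 fold change was 0.97 and no longer called (adjusted p = 0.0744), and without plate replicate 2 it was 2.08.

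MDK, the second midkine-family gene, lies on the plus strand of chromosome 11 (46380756 to 46383837) and ranged from 584 to 889 CPM over the 12 film libraries, with a median of 728 CPM. It had 527 and 557 CPM on differentiated plates and 744 and 578 CPM in untreated cells. Both differentiated plate libraries were below every film library, and the untreated libraries lay within or just below the film range. The log2 fold change on films over differentiated plates was 0.44 (SE 0.16) and was not called (adjusted p = 0.117). It was called by DESeq2, with the replicate number as a block (adjusted p = 0.0412) and in the fit of the compared groups alone (adjusted p = 0.0498). Per kilobase of exon, MDK exceeded PTN by 4.50 to 10.0 times on films, by 20.4 and 10.0 times on differentiated plates and by 17.5 and 17.8 times in untreated cells.

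ALKAL2, on the minus strand of chromosome 2 (279558 to 288851), had 7 counts in all, 1 in a stimulated P(rGO) library, 1 in a P(rGO) library, 1 in a differentiated plate library and 4 in an untreated library. It was at 0 in 12 libraries, where a count of 0 allows up to 3 counts, or 0.141 to 0.191 CPM over the depths of the 16 libraries. These limits cover counting error only. Transcripts that nearly every cell uses, among them LDHA and FBL, are also listed at 0 in this table, so a listed 0 may be a failed count. ALKAL1, the other ligand gene of the family, was not tested either.

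MYCN, on the plus strand of chromosome 2 (15940564 to 15947007), had 1.78 and 2.66 CPM on stimulated P(rGO), 2.00 and 2.43 CPM on P(rGO), 2.59 and 2.29 CPM on stimulated PEDOT:PSS, 2.43 and 3.08 CPM on PEDOT:PSS, 3.33 and 2.87 CPM on stimulated ITO, and 3.14 and 1.81 CPM on ITO. Differentiated plates had 9.99 and 6.94 CPM and untreated cells 13.7 and 7.81 CPM. All film libraries were below all plate libraries, and the differentiated and untreated plates overlapped. The film libraries held 31 to 71 MYCN counts each, so counting error alone is a visible part of their spread. MYCN was 3.36-fold lower on films than on differentiated plates (log2 fold change -1.75, SE 0.23, adjusted p = 0.000582). Without plate replicate 1 the log2 fold change was -1.46 and just missed the call (adjusted p = 0.0529).

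MYC, on the plus strand of chromosome 8 (127735434 to 127741434), had 6.11 and 6.16 CPM on stimulated P(rGO), 6.47 and 7.47 CPM on P(rGO), 7.71 and 5.83 CPM on stimulated PEDOT:PSS, 7.47 and 4.87 CPM on PEDOT:PSS, 8.35 and 9.54 CPM on stimulated ITO, and 6.22 and 8.15 CPM on ITO. Differentiated plates had 36.3 and 10.3 CPM and untreated cells 88.2 and 27.7 CPM. The film libraries lay close together and below all plate libraries, but the second differentiated plate was only just above stimulated ITO, and the libraries of each plate group differed from each other by more than any film libraries did. MYC was 3.34-fold lower on films than on differentiated plates (log2 fold change -1.74, SE 0.35, adjusted p = 0.00795). That call rested on plate replicate 1: without it the log2 fold change was -0.57 (adjusted p = 0.719), and without plate replicate 2 it was -2.37 (adjusted p = 0.00171). Plate replicate 1 also had 8.58% mitochondrial and 5.74% ribosomal protein reads, against 5.42% and 4.27% in plate replicate 2, and the part of this in the result was not tested.

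Added together per kilobase of exon, MYC and MYCN came to 2.72 to 4.28 CPM per kilobase on films, 15.9 and 6.11 on differentiated plates and 34.6 and 12.2 in untreated cells. MYC exceeded MYCN on that scale in all 16 libraries, by 1.29 to 5.6 times. By means, the order of the 3 conditions was the same for the sum as for each gene. Films were below all plate libraries, but the differentiated and untreated libraries overlapped for the sum and for each gene.

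MAX, the partner of both, lies on the minus strand of chromosome 14 (65006174 to 65102695) and ranged from 61.3 to 75.8 CPM on films (median 67.9), with 73.0 and 75.2 CPM on differentiated plates and 72.9 and 98.0 CPM in untreated cells. The film and plate ranges overlapped, and the log2 fold change on films over differentiated plates was -0.13 (SE 0.10, adjusted p = 0.498). MXI1, the repressor partner of MAX, lies on the plus strand of chromosome 10 (110207605 to 110287365) and ranged from 86.8 to 143 CPM on films (median 96.1), with 147 and 138 CPM on differentiated plates and 102 and 147 CPM in untreated cells. A stimulated P(rGO) library reached the plate range and the other 11 film libraries were below it. MXI1 was 1.43-fold lower on films (log2 fold change -0.52, SE 0.12, adjusted p = 0.0157), and this was lost if plate replicate 1 was left out (-0.47, adjusted p = 0.273) or plate replicate 2 was (-0.54, adjusted p = 0.0649).

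LIN28B, on the plus strand of chromosome 6 (104936616 to 105083332), ranged from 11.2 to 17.3 CPM on films (median 14.3), with 14.4 and 12.4 CPM on differentiated plates and 17.5 and 20.3 CPM in untreated cells. Both untreated libraries were above every film and differentiated plate library, and films and differentiated plates overlapped. The log2 fold change on films over differentiated plates was 0.10 (SE 0.15, adjusted p = 0.736).

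Per kilobase of exon, which allows levels of different genes to be compared, MDK was the highest member in every group, with group means of 247 to 355 CPM per kilobase. The order below it differed between films and plates. On the films PTN came next, with group means of 36.2 to 56.3 CPM per kilobase, then ALK at 30.1 to 38.6, MXI1 at 19.2 to 27.8 and MAX at 14.2 to 16.3; on stimulated P(rGO), PTN at 36.2 ± 5.81 and ALK at 33.6 ± 5.82 (SD, n = 2 each) did not differ beyond their spread. On differentiated plates ALK came next at 65.0, ahead of MXI1 at 30.9, PTN at 18.5 and MAX at 16.7 CPM per kilobase. The PTN libraries there, at 11.8 and 25.3, lay on both sides of the MAX mean. In untreated cells ALK at 39.4 was ahead of MXI1 at 27.0, with MAX at 19.3 and PTN at 17.1. The MYC mean was also 19.3, but its libraries, at 29.4 and 9.21, lay above and below those of MAX and PTN. MYC and LIN28B were close on films, at 2.05 to 2.98 and 2.13 to 2.62 CPM per kilobase, and MYCN was the lowest tested member there, at 0.852 to 1.19. By group means LIN28B was the lowest tested member on differentiated plates, at 2.23 against 3.25 for MYCN. The same held in untreated cells, at 3.14 against 4.13 for MYCN. There the libraries overlapped, at 2.91 and 3.38 for LIN28B and 5.25 and 3.00 for MYCN.

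Each film was also compared with the plates on its own; these comparisons share the same plate libraries. MYCN was called lower on all 6 film groups, ALK on P(rGO), ITO and their stimulated forms, PTN higher on all but stimulated P(rGO), and MXI1 lower on ITO. The MXI1 call on ITO was lost in each of the 4 fits that left out a library of ITO or of the plates (adjusted p = 0.0644 to 0.203). On P(rGO) 3 of 8 members were called, 1 higher and 2 lower, where 4.63% of all genes were called, 2.99% higher and 1.64% lower. On PEDOT:PSS 2 were called, 1 in each direction, against 1.48% of all genes, 1.02% higher and 0.454% lower. On ITO 4 were called, 1 higher and 3 lower, against 4.23% of all genes, 2.5% higher and 1.73% lower.

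Stimulated P(rGO) had 2 called members, both lower, where 1.68% of all genes were called, 0.835% higher and 0.841% lower. Stimulated PEDOT:PSS had 2, 1 in each direction, against 1.25% of all genes, 0.791% higher and 0.459% lower. Stimulated ITO had 3, 1 higher and 2 lower, against 2.18% of all genes, 1.44% higher and 0.741% lower. MYC had log2 fold changes of -1.92 on stimulated P(rGO), -1.74 on P(rGO), -1.78 on stimulated PEDOT:PSS, -1.92 on PEDOT:PSS, -1.38 on stimulated ITO and -1.70 on ITO, with SEs of 0.52 to 0.54, and was called on none of them. Without plate replicate 1 the members called in a single film comparison came to 1, ALK on ITO, and to 0 in the other 5. Leaving out a library of the film itself brought the count to 1 on P(rGO) without either library, 0 on PEDOT:PSS without either, 1 on ITO without replicate 2, 0 on stimulated P(rGO) without replicate 1, 0 on stimulated PEDOT:PSS without either, and 1 on stimulated ITO without either.

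**Figure D2:**
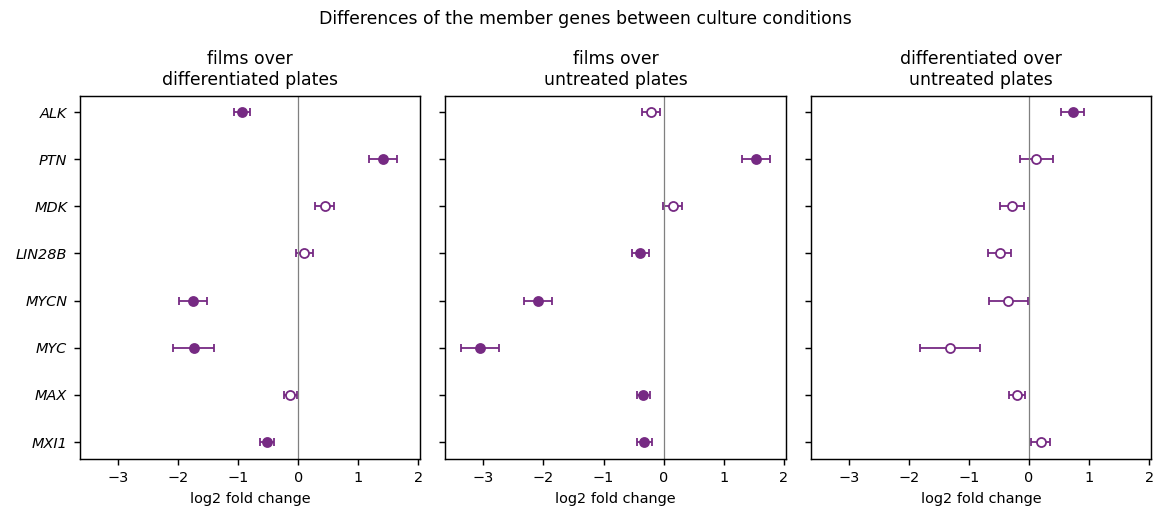
Log2 fold changes of the 8 tested members with their SEs, from the fit over all 16 libraries, for films over differentiated plates, films over untreated plates and differentiated over untreated plates. Filled points passed an adjusted p of 0.05. PTN is to the right and MYCN and MYC to the left in both comparisons of films, and ALK is the only filled point between the plates.

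Differentiated plates were also compared with untreated cells. Of the 8 tested, 1 was called, ALK, where 29.6% of all genes were called, 13.8% higher and 15.8% lower. ALK was 1.65-fold higher on differentiated plates, with the libraries given above not overlapping the untreated ones (log2 fold change 0.72, SE 0.19, adjusted p = 0.0139). It failed the test without untreated replicate 2 (0.48, adjusted p = 0.0811), without plate replicate 2 (0.66, adjusted p = 0.093) and in the fit of these 2 groups alone (adjusted p = 0.205). MYC had a log2 fold change of -1.31 (SE 0.50, adjusted p = 0.0626) and LIN28B one of -0.49 (SE 0.19, adjusted p = 0.067), neither called. MYC was called with the replicate number as a block (adjusted p = 0.0469), without untreated replicate 2 (-1.92, adjusted p = 0.016) and without plate replicate 1 (-2.48, adjusted p = 0.0065). It was not called without untreated replicate 1 (-0.26, adjusted p = 0.703), without plate replicate 2 (-0.68, adjusted p = 0.384), in the fit of these 2 groups alone (adjusted p = 0.305) or by DESeq2 (adjusted p = 0.0846). MYCN, MDK, MAX, MXI1 and PTN had log2 fold changes of -0.34, -0.29, -0.21, 0.19 and 0.12.

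Cells differentiated on films were also set against untreated cells. Untreated cells were on plates only, so differentiation and growth on a film cannot be told apart here. Of the 8 tested, 6 were called, PTN higher and LIN28B, MYCN, MYC, MAX and MXI1 lower. Of all genes, 47.9% were called, 21.9% higher and 26% lower, also more than the 29.6% on differentiated plates. The film mean rests on 12 libraries and the plate mean on 2, so the larger count is no result about the members. PTN was 2.90-fold higher (log2 fold change 1.54, SE 0.24, adjusted p = 0.000154). MYC was 8.31-fold lower (log2 fold change -3.05, SE 0.32, adjusted p = 5.31e-06) and MYCN 4.26-fold lower (log2 fold change -2.09, SE 0.23, adjusted p = 7.53e-06). The size of the MYC difference rested on the untreated libraries, at -1.99 without untreated replicate 1 (adjusted p = 0.0011) and -3.65 without untreated replicate 2 (adjusted p = 1.42e-05). In these 3 genes, and also in LIN28B, every film library lay on the same side of every untreated library. How many of all genes separate in this way was not counted.

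The smaller differences lost their calls in some fits with a library left out. MAX had a log2 fold change of -0.34 (SE 0.10, adjusted p = 0.0141), which became -0.10 without untreated replicate 2 (adjusted p = 0.465). LIN28B had -0.39 (SE 0.14, adjusted p = 0.0362) and lost its call in 9 of the 14 fits that left out 1 library, furthest without untreated replicate 2 (-0.27, adjusted p = 0.247). MXI1 had -0.32 (SE 0.12, adjusted p = 0.0385) and lost its call in 11 of those 14 fits, again most of all without untreated replicate 2 (-0.02, adjusted p = 0.902). ALK was not called, at -0.21 (SE 0.15, adjusted p = 0.241), and its sign depended on the untreated library kept: 0.08 without untreated replicate 1 and -0.45 without untreated replicate 2 (adjusted p = 0.0317). MDK was at 0.15 (SE 0.16, adjusted p = 0.445).

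Electrical stimulation changed no member past the test on any film. The counts called were 0 of 8 members on P(rGO), on PEDOT:PSS, on ITO, for the mean of the films and for the difference in response between films, and 0% of all genes were called in each of these comparisons. At an unadjusted p under 0.05 there were 986, 126, 293, 1021 and 133 genes in that order, among them 2, 0, 0, 1 and 0 members. DESeq2 called 0 members in each of them, and 14, 0, 0, 7 and 0 genes in all.

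PTN on P(rGO) had the widest separation. The stimulated libraries, at 69.0 and 55.0 CPM, were below the unstimulated ones, at 93.9 and 99.0 CPM, with a log2 fold change of -0.64 (SE 0.27, 95% interval -1.23 to -0.05, adjusted p = 0.877). Over the 3 films the mean log2 fold change of PTN was -0.32 (95% interval -0.66 to 0.02, adjusted p = 0.888), and 5 of the 6 stimulated libraries were below the lowest unstimulated one, while a stimulated ITO library, at 101 CPM, was above them all. MXI1 had a log2 fold change of 0.43 on P(rGO) (SE 0.16, adjusted p = 0.834) and 0.26 over the films (95% interval 0.06 to 0.46, adjusted p = 0.829). Its stimulated libraries ranged from 95.4 to 143 CPM and its unstimulated ones from 86.8 to 96.8 CPM, so the ranges met at their ends. The intervals of the mean response were -0.18 to 0.30 for ALK, -0.33 to 0.17 for MDK, -0.32 to 0.15 for LIN28B, -0.41 to 0.50 for MYCN, -0.58 to 0.76 for MYC and -0.04 to 0.29 for MAX. These widths do not show that stimulation left the genes alike.

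**Figure D3:**
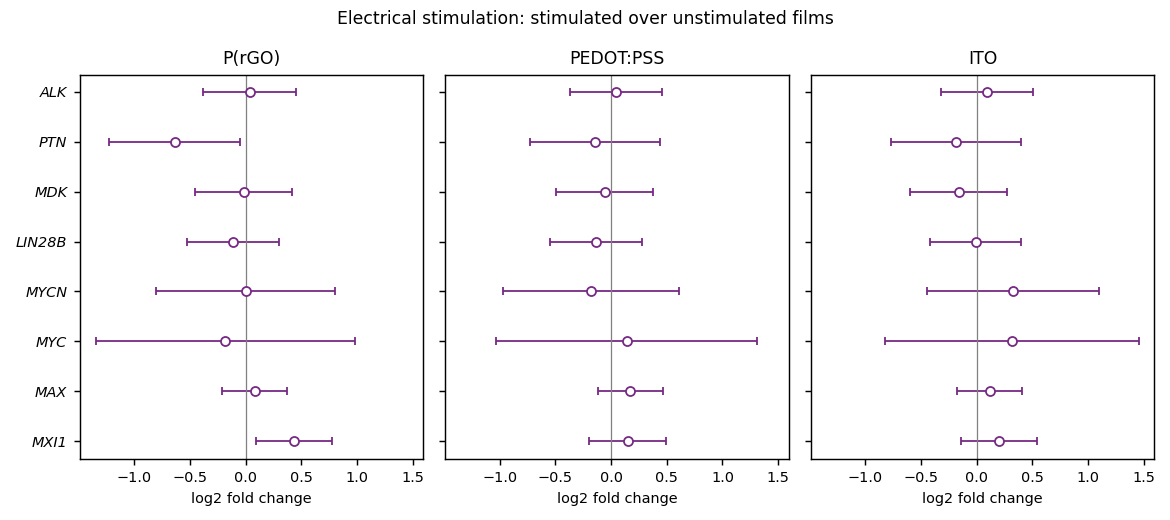
Log2 fold changes of the 8 tested members for stimulated over unstimulated P(rGO), PEDOT:PSS and ITO films, with 95% intervals from the fit over all 16 libraries. No point passed an adjusted p of 0.05, the PTN and MXI1 intervals on P(rGO) leave 0 outside, and the MYC intervals are the widest.

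Unstimulated films were also set against each other. No member was called for PEDOT:PSS over P(rGO), ITO over P(rGO) or PEDOT:PSS over ITO, and 0% of all genes were called in each. Unadjusted p-values under 0.05 numbered 243, 299 and 283 genes, among them 0 members in each comparison, and DESeq2 called 0 members and 0, 0 and 2 genes. The members' log2 fold changes ran from -0.18 to 0.32 for PEDOT:PSS over P(rGO), from -0.12 to 0.16 for ITO over P(rGO) and from -0.23 to 0.31 for PEDOT:PSS over ITO.

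The genes around the members were followed as 6 lists, whose counts stand against the shares of all genes given above for each comparison. Of 13 tested receptors and co-receptors of the ligands, 3 were higher and 0 lower on films than on differentiated plates, with a median log2 fold change of 0.08 against -0.02 over all genes tested. ITGA4, an integrin subunit, averaged 6.41 ± 1.95 CPM on films (SD, n = 12) and 1.31 ± 0.22 CPM on differentiated plates (SD, n = 2), with a log2 fold change of 2.24 (SE 0.34, adjusted p = 0.00147). ITGB1, the beta subunit it pairs with, averaged 707 ± 60.7 and 464 ± 51.7 CPM (0.60, SE 0.11, adjusted p = 0.00499), and NOTCH2, reported to bind MDK, had a log2 fold change of 0.96 (adjusted p = 0.012). PTPRZ1, the main receptor phosphatase of PTN, was not tested for lack of counts.

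On differentiated plates over untreated cells, 0 of the same 13 were higher and 5 lower, with a median of -0.18 against -0.01 over all genes. Of all genes, 13.8% were higher and 15.8% lower. The leading falls were in SDC2, a syndecan, with 12.1 ± 5.72 CPM on differentiated plates against 126 ± 54.6 CPM in untreated cells (log2 fold change -3.39, SE 0.33, adjusted p = 3.02e-05), and NOTCH2, with 22.4 ± 5.40 CPM against 110 ± 44.3 CPM (-2.30, SE 0.26, adjusted p = 7.96e-05). SDC1, NCL and ITGA4 made up the rest. On films over untreated cells 3 were higher and 6 lower, where 21.9% of all genes were higher and 26% lower.

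Genes that report on ERK signalling, which ALK feeds, went in both directions. On films over differentiated plates 2 of 9 were higher, 1 was lower, and the median was 0.08. PHLDA1, a growth factor-induced gene, averaged 5.12 ± 1.99 CPM on films and 19.9 ± 4.05 CPM on differentiated plates (log2 fold change -2.05, SE 0.20, adjusted p = 5.35e-05). SPRY2, a feedback inhibitor of the pathway, averaged 63.5 ± 16.01 and 23.7 ± 0.15 CPM (1.39, SE 0.18, adjusted p = 0.000549), and SPRY4, of the same family, was also higher (0.88, adjusted p = 0.00818). On differentiated plates over untreated cells 5 were higher and 2 lower, with a median of 0.92: PHLDA1 rose (2.58, SE 0.32, adjusted p = 0.000155), as did DUSP6, an ERK phosphatase (1.27, SE 0.17, adjusted p = 0.000263). On films over untreated cells 4 were higher and 1 lower, where 21.9% of all genes were higher and 26% lower. For differentiated plates over untreated cells, 13.8% of all genes were higher and 15.8% lower.

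The LIN28 and let-7 list had 7 tested genes. None was called on films over differentiated plates, where 7.78% of all genes were, a share at which no call among 7 genes is no result about the list. None was called on differentiated plates over untreated cells either, where 29.6% of all genes were, and 1 was higher and 1 lower on films over untreated cells, against 47.9%. The list's median log2 fold change was -0.09 for films over differentiated plates and 0.05 for differentiated plates over untreated cells. LIN28A, the paralogue of LIN28B, and the let-7 targets HMGA2, IGF2BP1, IGF2BP2 and TRIM71 had too few counts to be tested, while IGF2BP3 averaged 76.5 ± 5.80 CPM on films and 73.3 ± 8.38 CPM on differentiated plates.

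In the MAX network 0 of 11 tested were higher and 2 lower on films than on differentiated plates, with a median of -0.16. Of all genes, 4.05% were higher and 3.73% lower in that comparison. MYCL, the third MYC gene, averaged 3.06 ± 0.79 CPM on films and 7.36 ± 1.87 CPM on differentiated plates (log2 fold change -1.28, SE 0.23, adjusted p = 0.00386). All 3 MYC genes were thus called lower on films in the fit over all 16 libraries. For MYC this rested on plate replicate 1, and MYCL was not followed with a library left out. MXD4, another MAX partner that represses, had -0.46 (SE 0.12, adjusted p = 0.0329). On differentiated plates over untreated cells 1 was higher, MNT (0.57, adjusted p = 0.041), and 1 lower, MXD3 (-1.33, adjusted p = 0.00855), both MAX-binding repressors, with a median of -0.22. On films over untreated cells 1 was higher and 3 lower. Of all genes, 29.6% were called on differentiated plates over untreated cells and 47.9% on films over untreated cells. Neither count is therefore a result about the list.

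Regulators of MYC protein stability gave 0 calls in 10 on films over differentiated plates (median 0.02), where 7.78% of all genes were called. On differentiated plates over untreated cells 0 were higher and 4 lower, with a median of -0.25: PLK1 (-2.50, SE 0.39, adjusted p = 0.000644) and AURKA (-2.02, SE 0.29, adjusted p = 0.00044), mitotic kinases known to stabilise MYCN and also markers of dividing cells, fell most, followed by PIM1 and USP7. On films over untreated cells 1 was higher and 4 lower, where 47.9% of all genes were called. That count is no result about the list. For differentiated plates over untreated cells, 13.8% of all genes were higher and 15.8% lower.

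Most of the listed MYC targets that were tested were lower after differentiation on plates and on films. The list was chosen with earlier results of these data known. Of 20 tested, 0 were higher, 13 lower and 7 not called on differentiated plates over untreated cells (median -0.77), where 15.8% of all genes were lower. On films over untreated cells 0 were higher, 18 lower and 2 not called (median -0.84, against 0.00 over all genes), where 26% of all genes were lower. Examples on plates were EIF4E, the cap-binding protein (-0.79, SE 0.13, adjusted p = 0.000877), and PPAT, an enzyme of purine synthesis (-1.0, SE 0.17, adjusted p = 0.000988). Films over differentiated plates gave 0 higher and 4 lower, with a median of -0.15: MCM7, part of the replication helicase, averaged 277 ± 35.8 CPM on films and 514 ± 128 CPM on differentiated plates (-0.90, SE 0.15, adjusted p = 0.00237), TERT, the catalytic subunit of telomerase, averaged 4.55 ± 1.05 and 11.8 ± 7.21 CPM (-1.39, SE 0.27, adjusted p = 0.00696), and NPM1 and RRS1 were the others. LDHA and FBL are listed at 0 and were not tested. Stimulation, averaged over the films, gave 0 calls in each of the 6 lists.

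**Figure D4:**
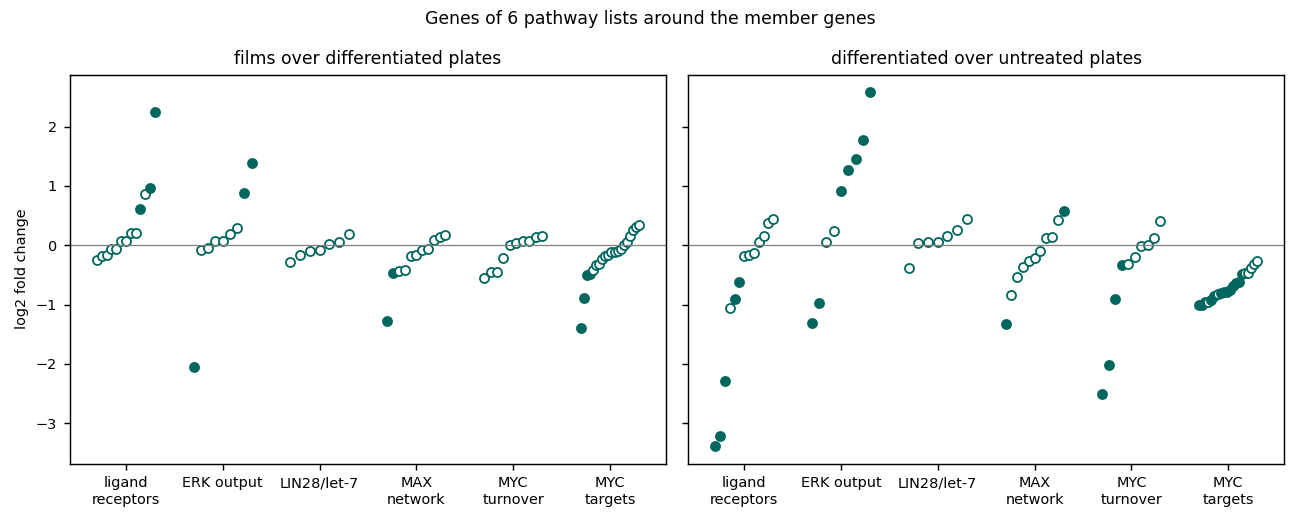
Log2 fold changes of the tested genes of 6 pathway lists, for films over differentiated plates and differentiated over untreated plates. Each point is a gene, filled where the adjusted p was at most 0.05. The MYC targets lie below 0 throughout on differentiated plates, and the ERK output genes spread to both sides.

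Markers of cell types were followed over the same groups. Fibroblast markers, 5 genes, summed to between 88.5 and 139 CPM on films, 72.5 and 76.6 CPM on differentiated plates and 143 and 186 CPM in untreated cells, most of it PDGFRB. LUM and DCN, 2 of the 4 tested, were higher on films than on differentiated plates, where 4.05% of all genes were higher. LUM averaged 17.3 ± 5.97 and 2.42 ± 0.81 CPM. Schwann cell markers stayed at or below 9.08 CPM, and immune markers at or below 0.0592 CPM. Of 7 tested adrenergic markers, 3 were lower on films than on differentiated plates, where 3.73% of all genes were lower. DBH, the enzyme that makes noradrenaline, was lower by most (-1.10, adjusted p = 0.00258). In bulk RNA, fewer cells of a type and less RNA per cell cannot be told apart, and the part of these markers in the results was not tested.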

How the data were processed

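Per the labels' protocols, libraries kept strand and were built from poly(A) RNA. The deposited table holds raw counts of reads per gene for 16 libraries, made by the authors with STAR and HTSeq on the builds GRCh38.p13 and hg38, per the submitters' processing notes; versions, annotation release and strand setting are not given in the sources used here. The 5 summary rows (reads without a gene, ambiguous or placed at several positions) were left out of library sizes and tests; reads without a feature were 5.58% to 10.01% of uniquely placed reads. In R 4.3.3, edgeR 4.0.16 kept 18081 of 69222 genes by its expression filter, scaled libraries by the trimmed mean of M values, and fitted a robust quasi-likelihood model with 1 mean per group, which leaves 8 residual degrees of freedom. SEs are the log2 fold change over the root of F. All 9 members were described in all 17 comparisons; from each pathway list the text names called genes with the 2 smallest p-values in the plate and film contrasts, with a few other called genes named after their values were seen. The members and lists were chosen with earlier results of these data known. Levels between genes use exon length from GENCODE 29. Promoters and microRNAs came from RefSeq on GRCh38.p14, where 7 of 9 members had a promoter. Alternatives were other scaling, no filter, the replicate block, the compared groups alone, DESeq2 1.42.0, and each library left out. The number of libraries per group, 2, limits precision more than depth does. For MYC, 1 gene of like pattern is not reported here.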

Additional observations from a re-analysis of the deposited data

Results flagged for a closer look

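Cells differentiated on films and cells differentiated on plates showed different changes from the same untreated plate cells in 5 members. The test of that difference is the comparison of films with differentiated plates in edgeR's quasi-likelihood fit. The difference between the changes was -0.94 on the log2 scale for ALK, 1.41 for PTN, -1.75 for MYCN, -1.74 for MYC and -0.52 for MXI1, with adjusted p of 0.00105, 0.00289, 0.000582, 0.00795 and 0.0157. The log2 fold changes over untreated cells were -0.21 on films and 0.72 on differentiated plates for ALK, 1.54 and 0.12 for PTN, -2.09 and -0.34 for MYCN, -3.05 and -1.31 for MYC, and -0.32 and 0.19 for MXI1. Both changes share the untreated libraries, so they are not independent. Without differentiated plate replicate 1 the difference was called for ALK alone. The film material and its coat cannot be told apart. No untreated cells were grown on films, so a film effect on differentiation cannot be told apart from one present without it.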

How the results depend on the processing

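The numbers of called members moved most with the libraries kept. Leaving out each library in turn gave 0 to 3 called members for differentiated plates over untreated cells, 0 to 4 on P(rGO), 0 to 3 on PEDOT:PSS, 1 to 4 on ITO, 0 to 3 on each stimulated film and 1 to 5 for the mean of the films over plates; a lone library left in a group is assumed to vary like the others. Left-out libraries also moved log2 fold changes across 0. Differentiated plates over untreated cells ranged from -0.54 to 0.57 for PTN, from -0.69 to 0.10 for MYCN, from -0.41 to 0.026 for MAX and from -0.059 to 0.49 for MXI1. Films over untreated cells ranged from -0.45 to 0.076 for ALK and from -0.0093 to 0.34 for MDK, and P(rGO) over plates from -0.058 to 0.16 for LIN28B. With no low-count filter the counts were 2 for differentiated plates over untreated cells, 3 for films over untreated cells, 6 on P(rGO), 5 on PEDOT:PSS, 5 on stimulated P(rGO) and 4 on stimulated PEDOT:PSS. Fitting the compared groups alone gave 0 for differentiated plates over untreated cells and 1 on each stimulated film. DESeq2 gave 2 for differentiated plates over untreated cells, 4 on PEDOT:PSS and 4 on stimulated P(rGO). Without the untreated libraries, an alternative chosen after seeing the data, 5 were called on P(rGO) and as many on PEDOT:PSS and its stimulated form. The cause was not tested. Relative log expression scaling left every member's direction and call in place in the comparisons listed.

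The labels number the libraries of every group 1 and 2, but over 28 pairs of groups the deviations of same-numbered libraries correlated between -0.19 and 0.29 (median 0.11, 16 above 0.1). Not every pair was above 0.1, so the numbers were not taken to pair the samples, although all 15 pairs of film groups were positive and the columns of each number share a name prefix that the labels do not explain. With a replicate block 2 members, ALK and MYC, were called for differentiated plates over untreated cells and 6 for films over plates, with MDK, which was higher in replicate 1 in 7 of 8 groups, added; the block changed no other call of a member. MYCN counts of 31 to 71 per film library limit its precision.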

Other observations

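Genes next to the members on their chromosomes did not share one direction. CLIP4, a neighbour of ALK on chromosome 2, averaged 56.7 ± 11.5 CPM on films (SD, n = 12) and 29.6 ± 0.35 CPM on differentiated plates (SD, n = 2), a log2 fold change of 0.92 (SE 0.17, adjusted p = 0.00563), the opposite sign to ALK. Around MYCN, DDX1, an RNA helicase, averaged 212 ± 16.6 and 203 ± 19.97 CPM (0.06, SE 0.15, adjusted p = 0.855), and NBAS averaged 82.3 ± 6.33 and 105 ± 0.33 CPM (-0.35, SE 0.20, adjusted p = 0.331), neither called. PVT1, the long noncoding RNA beside MYC, averaged 6.17 ± 0.88 and 6.36 ± 1.24 CPM (-0.05, SE 0.26, adjusted p = 0.941), while MYC itself averaged 7.03 ± 1.31 and 23.3 ± 18.4 CPM. MYCNOS, antisense to MYCN, had 26 counts in all and was not tested.

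The protein-coding genes whose log2(CPM + 0.5) followed each member most closely over the 16 libraries, among 10522 genes with a mean of at least 5 CPM, are given as a description; the libraries share 8 groups, so these values mostly rank genes by their differences between conditions. For ALK they were ABCA12 (Pearson r 0.94), BCL2L11, the cell death gene that encodes BIM (0.93), and TACC2 (0.91). For PTN they were FRMD3 (0.98), CRYM, a thyroid hormone-binding protein gene (0.97), and COLEC11 (0.97). For MYCN they were SULF2, which edits heparan sulphate (0.97), TLN2 (0.96) and GLCCI1 (0.95), and for MYC they included CENPV (0.97) and GAR1, of the H/ACA ribonucleoproteins (0.96).

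MDK was followed most closely by CORO6 (0.86), VOPP1 (0.86) and TWF2 (0.85), and LIN28B by DESI2 (0.89), PPM1D (0.89) and MCTS1 (0.88). For MAX the genes were PHLPP1 (0.91), CELF1 (0.91) and ZNF8 (0.90), and for MXI1 PAPPA2 (0.92), INSR, the insulin receptor gene (0.91), and C9orf85 (0.90). Among the members, MYCN and MYC had r = 0.90 with each other, PTN had -0.86 with MYCN and -0.82 with MXI1, and ALK had 0.67 with MYCN.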
